A study of Homo sapiens with 15 samples.

Results

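The 9 genes described here belong to the BCL2 family, whose proteins govern the mitochondrial route of cell death. Of these, 4 encode proteins that hold death back (BCL2, BCL2L1, BCL2L2 and MCL1) and 5 encode proteins that promote it (BCL2L11, PMAIP1, BID, BIK and BAK1). They were taken by name, through every probe set annotated to that gene alone, which gave 46 of 45277 probe sets that name a single gene and 9 of 18244 genes. All 9 passed the filter on dim genes, as did 12721 genes in all. Each gene is represented by its brightest probe set on average unless another is named.

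The arrays came from a study of how MYCN shapes transcription in neuroblastoma, a childhood tumour of the sympathetic nervous system. Total RNA of 5 established cell lines was hybridised to 15 oligonucleotide arrays, 3 per line, and no line was treated. NGP, BE(2)-C and KELLY carry amplified copies of the MYCN oncogene and SK-N-AS and SH-SY5Y do not, which is general knowledge of these lines and is not in the labels. BE(2)-C is a clone of SK-N-BE(2) and SH-SY5Y is a subclone of SK-N-SH. Every line was grown in DMEM with 10% FBS, external ERCC RNAs were added when the counted cells were lysed, and 100 ng of total RNA was labelled per sample. The class contrast is thus 3 lines against 2, each line standing for 1 tumour.

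The anti-apoptotic proteins bind and restrain the effectors BAX and BAK1, which otherwise permeabilise the outer mitochondrial membrane and release cytochrome c. BH3-only proteins such as those encoded by BCL2L11 (BIM), PMAIP1 (NOXA), BID and BIK act upstream, by occupying the anti-apoptotic proteins or by activating the effectors directly. Neuroblastoma cells are known to differ in whether they lean on BCL2 or on MCL1 for survival, and inhibitors of both proteins have been studied in this tumour.

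MYCN and MYC followed the classes. MYCN had an intensity of 9925 ± 614 for NGP, 13689 ± 526 for BE(2)-C and 9363 ± 163 for KELLY, against 78.8 ± 6.3 for SK-N-AS and 152 ± 30.2 for SH-SY5Y (SD, n = 3 each). MYC lay between 30.2 and 81.0 in the amplified lines, against 1788 for SK-N-AS and 1746 for SH-SY5Y. The deposited intensities were not on a common array total: the median of all probe sets was 76.8 for NGP, 103 for BE(2)-C and 68.3 for KELLY, against 123 for SK-N-AS and 54.4 for SH-SY5Y. The ERCC probe sets had nearly equal medians on all arrays, from 8.85 to 9.12 on the log2 scale. The median log2 difference over all tested genes was 1.23 for SK-N-AS minus SH-SY5Y, and each result is therefore given on the deposited scale and with each array centred on its median tested gene. In such bulk RNA, fewer cells with a transcript and less RNA per cell cannot be told apart. The lowest correlation between arrays of 1 line was 0.993, and the highest between lines was 0.892. For ACTB, the control of RNA integrity, 3′ probes exceeded 5′ probes by 1.23 on the log2 scale for NGP and by 0.71 for SK-N-AS, the ends of the range over lines. For GAPDH the same difference was 0.35 ± 0.03 for SH-SY5Y, the line where BCL2 and BCL2L11 were highest on centred arrays, and between 0.18 and 0.24 in the other lines (SD, n = 3). The part of RNA quality in the results was not tested. The labels do not say that the 3 arrays of a line came from separate cultures, so p-values cover the spread between these samples alone, which may be technical. All 9 sympathetic marker genes with a probe set lay above the filter in NGP, BE(2)-C, KELLY and SH-SY5Y. In SK-N-AS 7 of 9 did, and CHGB and ELAVL4 were below it. STMN2 at 83.2 and DBH at 96.0 were barely above it there, against 5148 to 11468 and 778 to 2435 in the other lines. On centred arrays PHOX2A, ISL1 and GATA3 were also lowest in SK-N-AS, at -2.61, -2.44 and -1.235. HAND2 was at -0.37 there, and TH was about as low in NGP and SH-SY5Y as in SK-N-AS.

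Once array medians were set equal, different family genes peaked in different lines: BCL2 and BCL2L11 in SH-SY5Y, PMAIP1 in KELLY, BID in BE(2)-C and BIK in SK-N-AS. In their brightest probe sets BCL2L1, BCL2L2, MCL1 and BAK1 differed by less than 2 times between any pair of lines on that scale. A dimmer BCL2L1 set had 1 pair called, and BCL2L2 had 1 called when no filter on dim genes was set. No gene of the 9 separated the MYCN-amplified lines from the others, and the balance of pro- over anti-apoptotic genes had line means between -0.08 and 0.12. That narrow range depended on single genes: without BCL2 the line means ran from -0.29 for NGP to 0.28 for SH-SY5Y. A pairwise difference between lines was called at a log2 difference of 1 or more in size with an adjusted p below 0.05 from limma. On the deposited scale 32 of 90 gene-by-pair differences were called, 35.6%, against 37.7% of those of all tested genes. On centred arrays 25 of 90 were called, 27.8%, against 20.8% of those of all tested genes. The pro-apoptotic genes had 19 of 50 differences called on the deposited scale and 17 of 50 on centred arrays, against 13 of 40 and 8 of 40 for the anti-apoptotic genes. BCL2 alone gave all 8 of the anti-apoptotic calls on centred arrays.

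**Figure D1:**
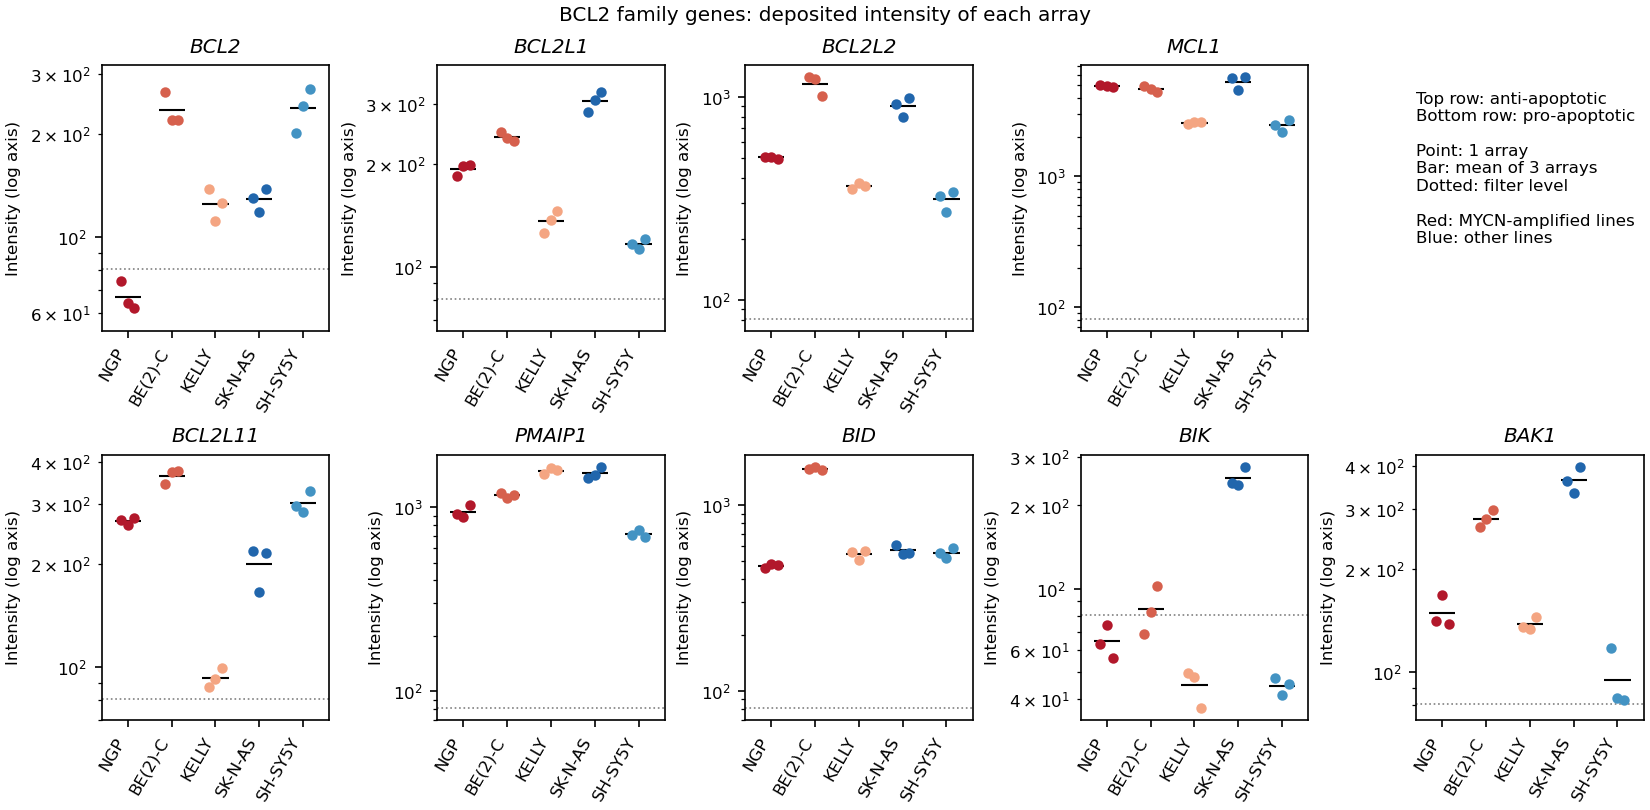
Deposited intensity (log axis) of the 9 genes on each of the 15 arrays, with NGP, BE(2)-C and KELLY in red shades and SK-N-AS and SH-SY5Y in blue. Points are arrays, bars are means of 3 arrays and the dotted line is the filter level of 80.6; BCL2 was below it in NGP, and BIK was clearly above it on the 3 SK-N-AS arrays.

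The spread of a gene was taken as the SD of its 5 line means on centred arrays. It was 0.95 for BCL2, larger than in 82.8% of tested genes, and 0.84 for BCL2L11, larger than in 79.3%. BID followed with 0.65, BIK with 0.57 and PMAIP1 with 0.53. MCL1, BCL2L2 and BAK1 had SDs of 0.30, 0.31 and 0.24. BCL2L1 had an SD of 0.11 in its brightest probe set, and only 2% of tested genes varied less, while its set 11759514_at ran from -0.59 to 0.51 over the lines. The median over the 9 genes was 0.53, against 0.44 over all tested genes.

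BCL2, the founding member of the family and the target of venetoclax, had the widest range among the 9. Its intensity was 74.4, 63.9 and 62.0 on the NGP arrays, 265, 219 and 220 for BE(2)-C, 138, 111 and 125.8 for KELLY, 130, 119 and 138 for SK-N-AS, and 201, 241 and 272 for SH-SY5Y. BE(2)-C and SH-SY5Y arrays overlapped at the top, KELLY and SK-N-AS arrays overlapped in the middle, and all 3 NGP arrays were below every other array and below the filter level. NGP minus BE(2)-C was -1.80 on the log2 scale (SE 0.12, adjusted p 3.52e-13) and NGP minus SH-SY5Y was -1.81 (SE 0.12, adjusted p 4.28e-13), and both were called. On centred arrays 8 of 10 pairs were called and the order changed. Relative to the gene's mean over the lines, NGP then stood at -0.97, BE(2)-C at 0.22, KELLY at 0.23, SK-N-AS at -0.84 and SH-SY5Y at 1.36. KELLY minus SH-SY5Y, the closest pair involving SH-SY5Y, was -1.14 (SE 0.11, adjusted p 9.06e-08), so SH-SY5Y was higher than each other line by more than 2 times. NGP minus SH-SY5Y was -2.33, a ratio of 0.199. BE(2)-C and KELLY did not differ beyond their spread (BE(2)-C minus KELLY -0.01, adjusted p 0.932), and neither did NGP and SK-N-AS (NGP minus SK-N-AS -0.12, adjusted p 0.318).

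BCL2L1 encodes BCL-X, which guards cells against BAK1 and BAX. Its brightest probe set, 11739958_x_at, can match related transcripts, and whether its probes tell the long and short forms of BCL-X apart was not examined. The place of BCL2L1 on the anti-apoptotic side, in the balance and in the ratios, follows the gene and not a form. The intensity averaged 194 ± 7.72 for NGP, 240 ± 7.58 for BE(2)-C, 137 ± 10.3 for KELLY, 306 ± 20.8 for SK-N-AS and 117 ± 3.90 for SH-SY5Y (SD, n = 3 each). These levels ran in the order of the array medians. On the deposited scale 3 pairs were called, among them SK-N-AS minus SH-SY5Y at 1.38 (SE 0.09, adjusted p 6.45e-14). On centred arrays 0 of 10 pairs were called in this set and its whole range over the lines was 1.24-fold. NGP was then slightly above the rest, by 0.30 over BE(2)-C (SE 0.07, adjusted p 0.000438), which is past the p threshold but under the fold threshold.

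BCL2L2 encodes BCL-W, a close relative of BCL-X. It averaged 503 ± 6.13 for NGP, 1160.5 ± 131 for BE(2)-C, 365 ± 13.1 for KELLY, 903 ± 99.4 for SK-N-AS and 314 ± 36.7 for SH-SY5Y (SD, n = 3 each). The 3 BE(2)-C arrays, from 1010.2 to 1249, lay above all 12 others. BE(2)-C minus SH-SY5Y was 1.88 (SE 0.10, adjusted p 2.66e-15) and BE(2)-C minus KELLY was 1.66 (SE 0.10, adjusted p 4.08e-14), among 5 pairs called on the deposited scale. On centred arrays BE(2)-C kept the highest mean, 0.56 to 0.75 above the others (largest adjusted p 2.48e-06), with 0 of 10 pairs past the fold threshold.

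MCL1 encodes a short-lived anti-apoptotic protein that is the main partner of NOXA. It averaged 4928 ± 103 for NGP, 4678 ± 254 for BE(2)-C and 2564 ± 53.8 for KELLY, against 5313 ± 657 for SK-N-AS and 2452 ± 267 for SH-SY5Y (SD, n = 3 each). The lines fell into an upper group of NGP, BE(2)-C and SK-N-AS and a lower group of KELLY and SH-SY5Y, with no overlap of arrays between these. Each group holds lines of both MYCN classes. NGP minus SH-SY5Y was 1.01 (SE 0.09, adjusted p 1.24e-10), KELLY minus SK-N-AS was -1.04 and SK-N-AS minus SH-SY5Y was 1.11, and these 3 were the pairs called. On centred arrays NGP was the highest, 0.49 above SH-SY5Y (SE 0.06, adjusted p 2.28e-06) and 0.71 above SK-N-AS (SE 0.06, adjusted p 1.22e-08), and 0 of 10 pairs passed the fold threshold.

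Among the pro-apoptotic genes, BCL2L11 encodes BIM, a BH3-only protein that binds every anti-apoptotic member and can activate BAX and BAK1. Its intensity was 270, 261 and 273 for NGP, 343, 372 and 374 for BE(2)-C, 87.4, 92.4 and 99.4 for KELLY, 218, 166.5 and 215 for SK-N-AS, and 296, 284 and 329 for SH-SY5Y. All 3 KELLY arrays lay below every other array. NGP minus KELLY was 1.52 (SE 0.10, adjusted p 7.51e-13), BE(2)-C minus KELLY was 1.95 (SE 0.10, adjusted p 1.92e-15), KELLY minus SK-N-AS was -1.09 (SE 0.10, adjusted p 1.22e-10) and KELLY minus SH-SY5Y was -1.69 (SE 0.10, adjusted p 9.46e-14). KELLY was thus called lower than each of the 4 other lines. A called difference from all 4 other lines in 1 direction was met by 25.5% of tested genes on the deposited scale and 19% on centred arrays. On centred arrays KELLY shared the low end with SK-N-AS, at -0.83 and -0.86 from the gene's mean, and these did not differ beyond their spread (adjusted p 0.772). NGP stood at 0.39, BE(2)-C at 0.21 and SH-SY5Y at 1.08. NGP minus SH-SY5Y was -0.69 (SE 0.09, adjusted p 1.55e-06), SK-N-AS minus SH-SY5Y was -1.94 (SE 0.09, adjusted p 8.77e-13), and 6 of 10 pairs were called.

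PMAIP1 encodes NOXA, a BH3-only protein that binds MCL1 and marks it for destruction. Its intensity was 920, 881 and 1030 for NGP, 1188, 1126.5 and 1158 for BE(2)-C, 1505, 1636 and 1587 for KELLY, 1446, 1494 and 1661 for SK-N-AS, and 702, 747 and 688 for SH-SY5Y. KELLY and SK-N-AS arrays overlapped at the top and all SH-SY5Y arrays were at the bottom. KELLY minus SH-SY5Y was 1.15 (SE 0.08, adjusted p 2.25e-12) and SK-N-AS minus SH-SY5Y was 1.10 (SE 0.08, adjusted p 8.39e-13), and these were the 2 pairs called. On centred arrays only KELLY stood apart, at 0.90 above the gene's mean. NGP minus KELLY was then -1.04 (SE 0.08, adjusted p 2.08e-09), BE(2)-C minus KELLY was -1.36 (adjusted p 4.38e-11), KELLY minus SK-N-AS was 1.16 (adjusted p 2.22e-10), and KELLY minus SH-SY5Y was 0.93 (adjusted p 9.18e-09), the last under the fold threshold. The 2 pairs called on the deposited scale and the 3 called on centred arrays had 0 in common. When no filter on dim genes was set, 1 pair was called on centred arrays.

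BID encodes a BH3-only protein that caspase-8 cleaves into an activator of BAX and BAK1, which links death receptors to the mitochondria. Its intensity was 456, 480 and 474 for NGP, 1558, 1611.5 and 1546 for BE(2)-C, 556, 507 and 570 for KELLY, 607, 547 and 555 for SK-N-AS, and 551, 519 and 585 for SH-SY5Y. The BE(2)-C arrays were more than 2 times as bright as any array of another line, and KELLY, SK-N-AS and SH-SY5Y arrays overlapped. NGP minus BE(2)-C was -1.74 (SE 0.08, adjusted p 1.88e-16), BE(2)-C minus KELLY was 1.53 (SE 0.08, adjusted p 1.78e-15), BE(2)-C minus SK-N-AS was 1.46 (SE 0.08, adjusted p 5.08e-15) and BE(2)-C minus SH-SY5Y was 1.51 (SE 0.08, adjusted p 1.71e-15). On centred arrays NGP stood at -0.37, BE(2)-C at 0.76, KELLY at 0.14, SK-N-AS at -0.91 and SH-SY5Y at 0.38, and every pair of neighbours in the order of levels differed past the p threshold (largest adjusted p 0.00328). The 4 pairs called then were NGP minus BE(2)-C at -1.12, BE(2)-C minus SK-N-AS at 1.66, KELLY minus SK-N-AS at 1.05 and SK-N-AS minus SH-SY5Y at -1.29. The low level of SK-N-AS appeared only after centring, since on the deposited scale KELLY minus SK-N-AS was -0.07 (adjusted p 0.401) and SK-N-AS minus SH-SY5Y was 0.05 (adjusted p 0.545). BE(2)-C also had 2 of 3 endothelial markers above the filter, and both of the 4 listed Schwann markers that had a probe set. The other lines had 0 or 1 of each. CDH5 was 231 and S100B 269 for BE(2)-C, against at most 42.5 and 49.5 in the other lines. PECAM1 was 105 for BE(2)-C and 92.5 for SK-N-AS, and SOX10 was 106 for BE(2)-C and 138 for SK-N-AS. The summed intensities of the endothelial and the Schwann markers were 391 to 417 and 357 to 392 for BE(2)-C. In the other lines they were 87.2 to 230 and 85.4 to 194. The part of these markers in the BID level was not tested.

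The sequence before a start site of BID is shown because it holds the letters CACGTG, the E-box that MYCN binds with MAX. RefSeq promoter windows of 250 bases before the start (GRCh38.p14) were held for 6 of the 9 genes, with 11 start sites in all. CACGTG, which reads the same on both strands, was found in 2 windows, both of BID, among 5 start sites of that gene, and 6.345% of 35116 windows of all genes held it. The windows of those start sites overlap and hold the same match, 106 bases before one start and 47 bases before the other. Counted by gene, 1 of the 6 had CACGTG in a window, against 7.728% of all genes with a window. The wider form CANNTG, of which CACGTG is one case, was in 3 of 11 windows, all of BID, against 61.815% of all windows. The sequence of the first start site, at chr22:17773984-17774233 on the minus strand, is given 5′ to 3′ with the match in capitals.
BID: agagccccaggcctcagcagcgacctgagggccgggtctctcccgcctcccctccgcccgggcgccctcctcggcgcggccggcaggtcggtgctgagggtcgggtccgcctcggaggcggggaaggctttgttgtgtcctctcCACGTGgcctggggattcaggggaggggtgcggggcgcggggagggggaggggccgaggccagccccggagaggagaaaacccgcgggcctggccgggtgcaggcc
A match of letters is a description of the sequence, and binding was not measured on these arrays. On the deposited scale BID averaged 470 ± 12.4 for NGP, 1572 ± 34.9 for BE(2)-C and 544 ± 33.2 for KELLY, against 570 ± 32.7 for SK-N-AS and 551 ± 33.1 for SH-SY5Y (SD, n = 3 each). On centred arrays it was at -0.37 for NGP, 0.76 for BE(2)-C and 0.14 for KELLY, against -0.91 for SK-N-AS and 0.38 for SH-SY5Y. The part of MYCN in the BID level was not tested.

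BIK encodes a BH3-only protein of the endoplasmic reticulum that binds BCL2 and BCL-X. Its intensity was 63.3, 74.2 and 56.1 for NGP, 68.5, 82.1 and 103 for BE(2)-C, 49.7, 47.9 and 37.0 for KELLY, 242, 237 and 276.5 for SK-N-AS, and 47.4, 41.3 and 45.1 for SH-SY5Y. All 3 SK-N-AS arrays were more than 2 times as bright as any other array, and the line means of NGP, KELLY and SH-SY5Y were below the filter level of 80.6. NGP minus SK-N-AS was -1.95 (SE 0.14, adjusted p 1.81e-12), BE(2)-C minus SK-N-AS was -1.58 (SE 0.14, adjusted p 1.98e-10), KELLY minus SK-N-AS was -2.47 (SE 0.14, adjusted p 1.25e-14) and SK-N-AS minus SH-SY5Y was 2.47 (SE 0.14, adjusted p 1.10e-14). BIK was the only one of the 9 genes to mark the same line on both scales. On centred arrays the same contrasts were -1.14, -1.38, -1.36 and 1.13 (largest adjusted p 1.45e-06), and the other 6 pairs were not past the p threshold. With a pseudocount of 16, or with values floored at the median of all values, 2 pairs were called for BIK on centred arrays. SK-N-AS also stood apart in markers of other cell types. All 8 mesenchymal markers lay above the filter in SK-N-AS, with summed intensities from 26520 to 29590, against 3 to 5 markers and sums from 812 to 4787 in the other lines. Of 4 epithelial markers, KRT8 and KRT18 were above it in SK-N-AS, with sums from 9511 to 10520 against sums from 116 to 223 in the other lines, while EPCAM and CDH1 were below it. Of 3 leukocyte markers only PTPRC was above it there, with sums from 393 to 431 for SK-N-AS against 59.2 to 113 in the other lines. The part of these in the BIK level was not tested.

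BAK1 encodes BAK, one of the effectors that form the pore in the outer mitochondrial membrane. It averaged 149 ± 16.6 for NGP, 281 ± 15.6 for BE(2)-C and 138 ± 5.84 for KELLY, against 365 ± 31.5 for SK-N-AS and 94.9 ± 19.8 for SH-SY5Y (SD, n = 3 each). SK-N-AS arrays lay above all others, from 335 to 398, and SH-SY5Y arrays below all others, from 82.9 to 118. On the deposited scale 5 pairs were called, with SK-N-AS minus SH-SY5Y at 1.95 (SE 0.11, adjusted p 2.15e-14) and KELLY minus SK-N-AS at -1.40 (SE 0.11, adjusted p 2.03e-11). On centred arrays 0 of 10 pairs were called. SK-N-AS and SH-SY5Y kept the highest and the lowest mean, 0.62 apart as SK-N-AS minus SH-SY5Y (SE 0.10, adjusted p 3.87e-05), and no neighbours in the order of levels differed past the p threshold (smallest adjusted p 0.117).

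**Figure D2:**
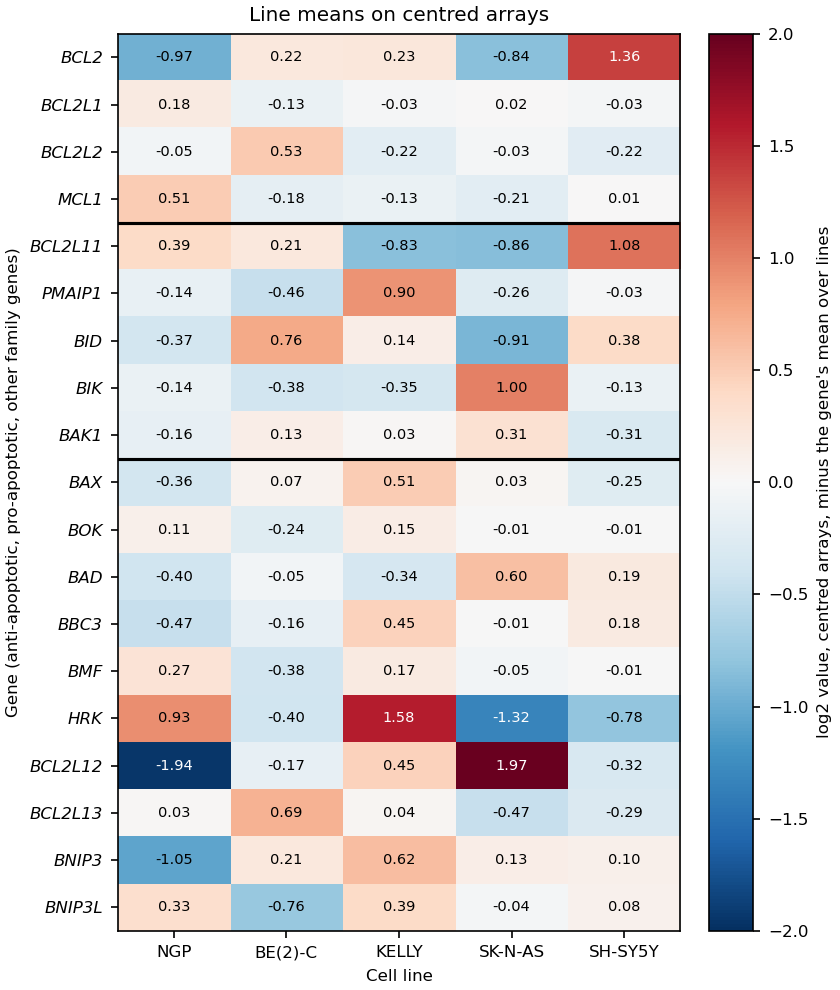
Line means on centred arrays (log2, each gene minus its own mean over the 5 lines) for the 4 anti-apoptotic genes, the 5 pro-apoptotic genes and 10 other family genes that passed the filter, with the value printed in each cell. BCL2 is at 1.36 and BCL2L11 at 1.08 for SH-SY5Y, PMAIP1 at 0.90 for KELLY, BID at 0.76 for BE(2)-C and BIK at 1.002 for SK-N-AS, while BCL2L1 stays between -0.13 and 0.18.

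Pairs called on both scales numbered 4 for BIK, 3 for BCL2L11, 2 for BID and 2 for BCL2, and 0 for each of the other 5 genes. By pair, NGP minus BE(2)-C had 3 of the 9 genes called on the deposited scale, all lower in NGP, against 31.4% of tested genes, and 2 on centred arrays against 19.3%. NGP minus KELLY had 1 gene called, BCL2L11, against 16.1%, and 3 on centred arrays against 14.1%. NGP minus SK-N-AS had 2 called, BIK and BAK1, both lower in NGP, against 43.9%, and 2 on centred arrays against 30.1%. NGP minus SH-SY5Y had 2 called, MCL1 higher and BCL2 lower in NGP, against 23%, and 1 on centred arrays, BCL2, against 16.2%. BCL2L11 was called higher in NGP than in KELLY on both scales, and BIK lower in NGP than in SK-N-AS.

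BE(2)-C minus KELLY had 4 genes called, all higher in BE(2)-C, against 42.5% of tested genes, and 2 on centred arrays against 17.4%, with BCL2L11 higher and PMAIP1 lower. BE(2)-C minus SK-N-AS had 2 called, BID higher and BIK lower, against 25.6%, and 4 on centred arrays against 25.1%. BE(2)-C minus SH-SY5Y had 4 called, all higher in BE(2)-C, against 56.1%, and 1 on centred arrays, BCL2, lower in BE(2)-C, against 16.5%. KELLY minus SH-SY5Y had 2 called, PMAIP1 higher and BCL2L11 lower, against 15.7%, and 2 on centred arrays, BCL2 and BCL2L11, both lower, against 14.9%.

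The contrasts of SK-N-AS with KELLY and with SH-SY5Y held calls of 1 direction on the deposited scale and of both directions on centred arrays. KELLY minus SK-N-AS had 6 genes called on the deposited scale, all lower in KELLY, against 54.4% of tested genes. On centred arrays it had 4, against 29.1%, with BCL2, PMAIP1 and BID higher and BIK lower in KELLY. SK-N-AS minus SH-SY5Y had 6 called on the deposited scale, all higher in SK-N-AS, against 68.5%, and 4 on centred arrays, against 25.9%. Of those 4, BIK was higher in SK-N-AS and BCL2, BCL2L11 and BID were lower.

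**Figure D3:**
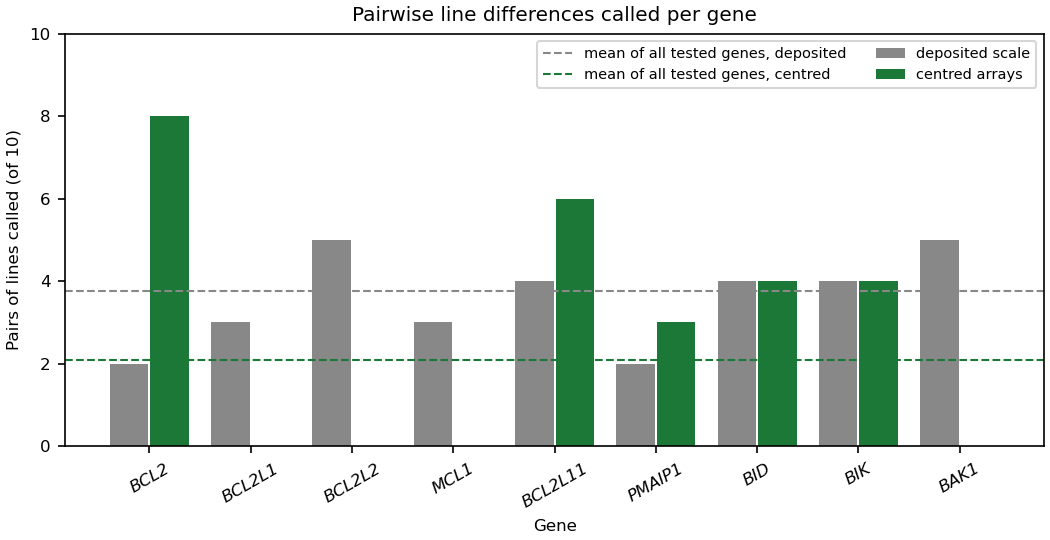
Number of the 10 pairs of lines in which each gene was called, on the deposited scale (grey) and on centred arrays (green), with the mean over all tested genes as dashed lines. BCL2 had 2 pairs on the deposited scale and 8 on centred arrays, and BCL2L1, BCL2L2, MCL1 and BAK1 had 0 on centred arrays.

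The MYCN-amplified lines were next compared as a class with the other lines. No gene of the 9 was called in all 6 contrasts between the classes with one sign, on either scale, against 1.03% of tested genes on the deposited scale and 1.12% on centred arrays. In the limma test over the 5 line means 0 of the 9 were called, against 0.33% of tested genes on the deposited scale and 0% on centred arrays. At an unadjusted p under 0.05 in that test, 0 of the 9 genes and 646 of 12721 genes passed on the deposited scale. On centred arrays 0 of the 9 and 786 of 12721 passed. These shares are small, so 0 of 9 genes does not set the family apart from other genes. The amplified minus other difference was -0.48 for BCL2 (SE 0.79), -0.03 for BCL2L1 (SE 0.79), 0.17 for BCL2L2 (SE 0.88) and 0.12 for MCL1 (SE 0.76). It was -0.23 for BCL2L11 (SE 0.81), 0.20 for PMAIP1 (SE 0.87), 0.40 for BID (SE 0.88), -0.77 for BIK (SE 0.83) and -0.04 for BAK1 (SE 0.80). The adjusted p was 1 for each of these 9. Each SE was larger than the difference it belongs to. The same differences were put to a two-sided exact permutation test over the lines, which cannot give a p below 0.1, and its p ran from 0.4 to 1 on the deposited scale. On centred arrays BIK reached 0.1 with a difference of -0.72 (SE 0.42, limma adjusted p 0.796), though NGP minus SH-SY5Y was then -0.00 with an adjusted p of 0.992. BIK was at -0.14 for NGP, -0.38 for BE(2)-C and -0.35 for KELLY, against 1.002 for SK-N-AS and -0.13 for SH-SY5Y. With SK-N-AS left out, the class difference of BIK was 0.47 on the deposited scale (SE 0.65) and -0.16 on centred arrays (SE 0.37), so its sign changed on the deposited scale alone. That of BID was -0.15 on the deposited scale with BE(2)-C left out (SE 0.999) and 0.15 on centred arrays (SE 0.56), where it was -0.20 with SK-N-AS left out (SE 0.54).

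The balance of the family was described as the mean of the 5 pro-apoptotic genes minus that of the 4 anti-apoptotic genes on each array, every gene set to 0 at its mean over the lines. It was -0.00 ± 0.06 for NGP, -0.06 ± 0.18 for BE(2)-C and 0.02 ± 0.03 for KELLY, against 0.12 ± 0.02 for SK-N-AS and -0.08 ± 0.12 for SH-SY5Y (SD, n = 3 each). It averaged -0.01 over the amplified lines and 0.02 over the other lines, a difference of -0.03. The SD over the line means was 0.08. The pooled SD over arrays of a line was 0.10, which is 0.06 for a mean of 3 arrays, and no test was made of the balance. The means of the 2 sides had the same sign as each other in every line on both scales, but for SK-N-AS and SH-SY5Y that sign depended on the scale. On centred arrays the pro- and the anti-apoptotic means were -0.14 and -0.27 for SK-N-AS, and 0.20 and 0.28 for SH-SY5Y. On the deposited scale they were 0.55 and 0.43 for SK-N-AS, and -0.44 and -0.36 for SH-SY5Y. The range and the order of the lines depended on single genes. Without BIK, SK-N-AS had the lowest balance, -0.16, and without BCL2, SH-SY5Y had the highest, 0.28, and NGP the lowest, -0.29. Without BCL2L11 the line means ran from -0.30 for SH-SY5Y to 0.30 for SK-N-AS, and without BAK1 from -0.08 to 0.04. The amplified minus other difference was -0.18 without BCL2 and 0.135 without BIK.

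**Figure D4:**
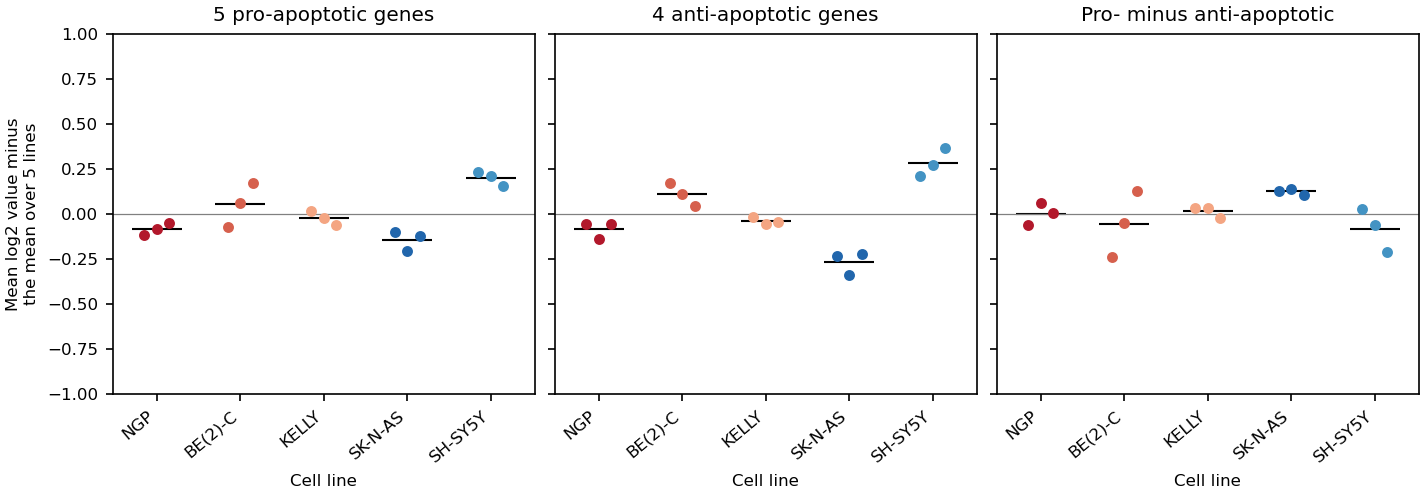
Mean log2 value, centred arrays, of the 5 pro-apoptotic genes, of the 4 anti-apoptotic genes, and their difference, each minus the mean over the 5 lines; points are arrays and bars are means of 3 arrays. SK-N-AS is lowest and SH-SY5Y highest in both the pro- and the anti-apoptotic panel, and the line means of the difference lie between -0.08 and 0.12.

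Ratios of known partners were taken as within-array log2 differences, set to 0 at their mean over the lines, and no test was made of them. BCL2L11 over BCL2, BIM against one of its guards, was 1.36 ± 0.14 for NGP, -0.00 ± 0.22 for BE(2)-C and -1.06 ± 0.20 for KELLY, against -0.01 ± 0.13 for SK-N-AS and -0.28 ± 0.18 for SH-SY5Y (SD, n = 3 each). This span of 5.32-fold lay within the MYCN-amplified class, and the NGP and the KELLY arrays overlapped with those of no other line. PMAIP1 over MCL1, NOXA against its main partner, was -0.65 ± 0.14 for NGP, -0.28 ± 0.07 for BE(2)-C and 1.03 ± 0.03 for KELLY, against -0.05 ± 0.18 for SK-N-AS and -0.04 ± 0.22 for SH-SY5Y, a span of 3.21-fold with KELLY above all other arrays. BID over BCL2L1 spanned 3.50-fold, with 0.89 ± 0.05 for BE(2)-C and -0.92 ± 0.17 for SK-N-AS as its ends. BIK over BCL2L1 was 0.99 ± 0.09 for SK-N-AS and between -0.32 and -0.10 in the other lines. For the effector, BAK1 over MCL1 spanned 2.28-fold, with -0.67 ± 0.15 for NGP and 0.51 ± 0.10 for SK-N-AS as its ends, and BAK1 over BCL2L1 spanned 1.55-fold. All these ratios rest on the brightest probe set of each gene. On centred arrays NGP minus SK-N-AS for MCL1 ran from -0.84 to 0.87 over its 6 sets. NGP minus KELLY for BCL2L11 was 1.29 in its brightest set and 0.43, -0.31 and 0.21 in the others above the filter. BCL2 was below the filter level in NGP.

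The probe sets of a gene did not always give one profile. Of the 46, 31 passed the filter, and these were fitted with all others as features of their own on centred arrays. For BCL2, the sets 11721376_at and 11721377_x_at, annotated to the alpha transcript, were each called in 8 of 10 pairs. The sets 11738351_x_at and 11738350_a_at, annotated to the beta transcript, were called in 0 pairs, with NGP minus SH-SY5Y at -0.40 and -0.53 against -2.33 and -2.35 for the alpha sets. The beta sets were near the filter level, with line means from 49.1 to 110. For BCL2L1, all 3 sets passed the filter. The set 11759514_at had 1 pair called, NGP minus SK-N-AS at 1.17, with NGP at 0.51 and SK-N-AS at -0.59, while the other sets had 0 pairs called, with the same difference at 0.23 and 0.28. For MCL1, NGP was the highest line in 3 sets, the 2 brightest, both annotated to one transcript, and 11715486_x_at. SK-N-AS was the highest in the other 3, 11715485_a_at, 11715487_a_at and 11715484_a_at. NGP minus SK-N-AS was 0.78 and 0.87 in the 2 brightest sets and -0.24, -0.36 and -0.84 in the SK-N-AS-high sets. The brightest MCL1 set, an _s_at set, can match related transcripts, and with the brightest other set MCL1 had 6 pairs called on the deposited scale. The place of MCL1 in the order of lines thus depended on the probe set.

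For BCL2L11, 4 of 14 sets passed the filter, and these were called in 6, 2, 0 and 2 pairs. SK-N-AS was the lowest line in all 4 and SH-SY5Y the highest in 3, while the low level of KELLY on centred arrays held its size in the brightest set only, with NGP minus KELLY at 1.29 there and 0.43, -0.31 and 0.21 in the other sets. Both PMAIP1 sets had KELLY highest and BE(2)-C lowest. All 4 BID sets had BE(2)-C highest and SK-N-AS lowest, with 4, 4, 4 and 5 pairs called. All 3 BIK sets had SK-N-AS highest, with 4, 3 and 4 of its contrasts called. The sets 11754121_a_at and 11722953_a_at passed the filter only through SK-N-AS, at 168 and 132. In the next brightest line, BE(2)-C, they were at 51.5 and 31.6. They are thus no separate evidence that SK-N-AS was highest. All 4 BAK1 sets above the filter had SK-N-AS highest and SH-SY5Y lowest, with 0 pairs called in any. With the mean over all sets of a gene BCL2L11 fell under the filter, and the 8 genes left had 12 called pairs on centred arrays, against 19 for those 8 by their brightest sets. Of the 12, 2 were of BCL2, against 8 by its brightest set.

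**Figure D5:**
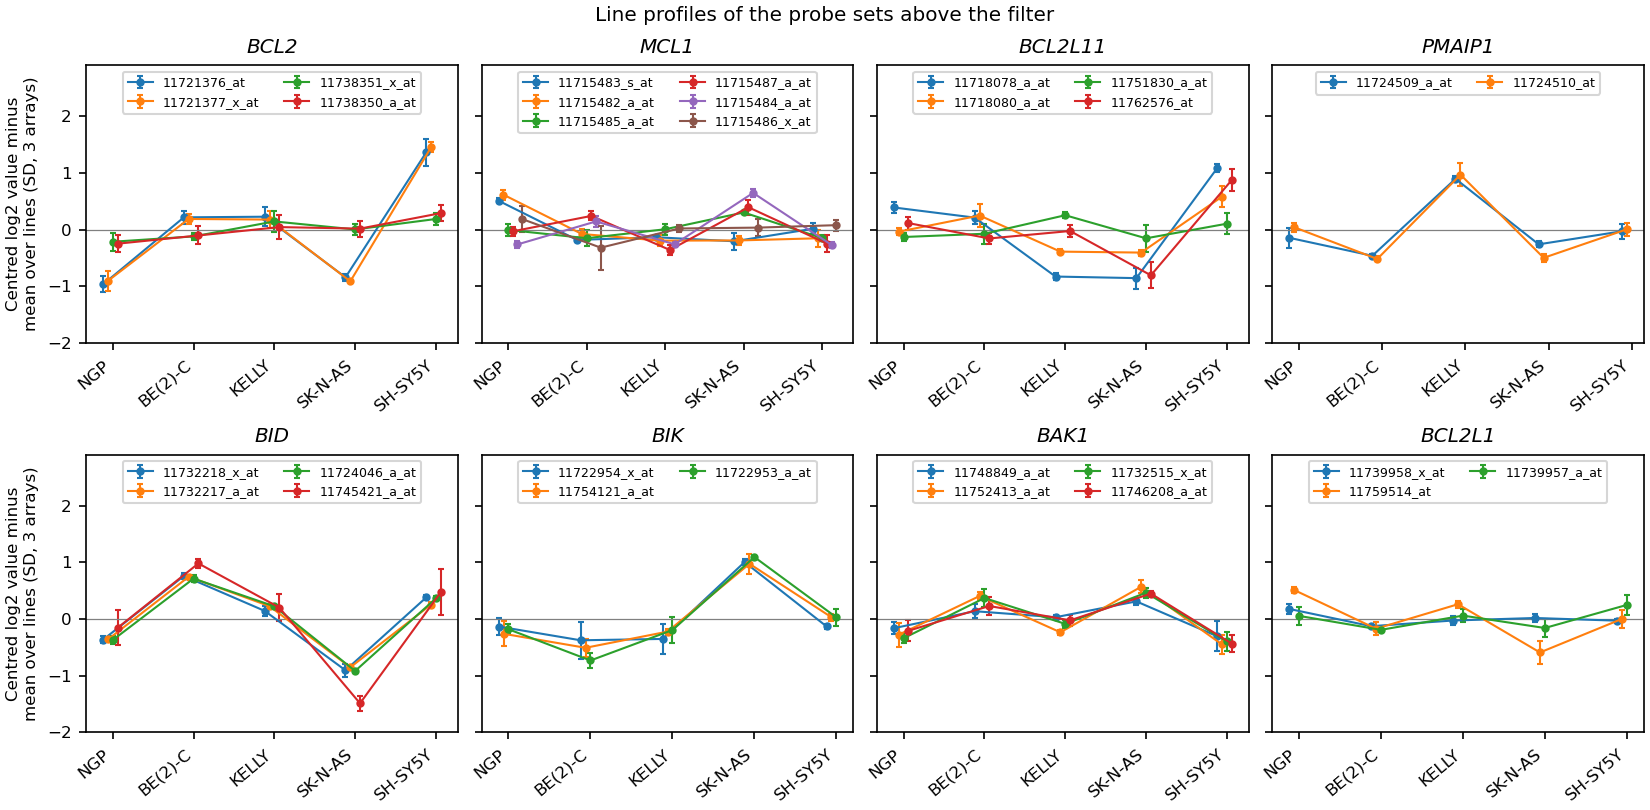
Line profiles on centred arrays (log2, each probe set minus its own mean over the lines; error bars SD of 3 arrays) of the probe sets above the filter for 8 of the genes. The BCL2 alpha sets span more than 2 log2 units while its beta sets stay between -0.25 and 0.29, the MCL1 sets cross, and the sets of PMAIP1, BID, BIK and BAK1 run together. The BIK sets 11754121_a_at and 11722953_a_at passed the filter only through SK-N-AS.

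Other family genes were taken from a list of 14, of which 10 passed the filter. They had 36% of their pairwise differences called on the deposited scale and 21% on centred arrays, against 37.7% and 20.8% of all tested genes. BCL2L12, described as an inhibitor of caspase activation, averaged 95.0 ± 10.9 for NGP, 500 ± 24.8 for BE(2)-C and 409 ± 43.5 for KELLY, against 2532 ± 131 for SK-N-AS and 205 ± 21.2 for SH-SY5Y (SD, n = 3 each), with 7 pairs called on centred arrays. HRK, a BH3-only gene of neurons, was 151 ± 23.1 for NGP, 91.4 ± 5.01 for BE(2)-C and 193 ± 24.1 for KELLY, against 55.9 ± 11.5 for SK-N-AS and 31.4 ± 3.33 for SH-SY5Y, with 6 pairs called. The mitophagy receptor BNIP3 was lowest in NGP on centred arrays, at -1.05, where its contrasts with all 4 other lines were called (largest adjusted p 6.34e-12). BNIP3L, its relative, was lowest in BE(2)-C, at -0.76. BAX, the other effector, which was named for its role beside BAK1, averaged 856 ± 47.8 for NGP, 1769 ± 37.3 for BE(2)-C and 1277 ± 90.8 for KELLY, against 1992 ± 224 for SK-N-AS and 648 ± 34.5 for SH-SY5Y.

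Downstream of the mitochondria, 8 of 11 listed apoptosome and mitochondrial release genes were tested. They had 46.2% of differences called on the deposited scale and 15% on centred arrays, against 37.7% and 20.8% of all tested genes. DIABLO, whose protein SMAC neutralises inhibitors of apoptosis, averaged 6841 ± 560 for NGP, 2487 ± 115 for BE(2)-C and 1092 ± 77.2 for KELLY, against 2993 ± 192 for SK-N-AS and 1093 ± 172 for SH-SY5Y. NGP was called higher than all 4 other lines (largest adjusted p 1.77e-14 on centred arrays). The initiator caspase gene CASP9 was lowest in BE(2)-C on centred arrays, at -0.96. AIFM1 was highest in NGP at 0.71 and lowest in SH-SY5Y at -0.75, and ENDOG was highest in BE(2)-C at 0.87. Of 6 listed inhibitors of apoptosis 5 were tested, with 34% called on the deposited scale and 16% on centred arrays, against the same shares of all tested genes. BIRC2, which encodes cIAP1, averaged 538 ± 26.9 for NGP, 3554 ± 106 for BE(2)-C and 1351 ± 49.5 for KELLY, against 2643 ± 85.0 for SK-N-AS and 1269 ± 115 for SH-SY5Y, and NGP was called lower than all 4 others on centred arrays (largest adjusted p 7.73e-14). NAIP was called higher in SH-SY5Y than in all others on centred arrays (largest adjusted p 3.17e-06), at 1.26. Its deposited intensity was 153 ± 31.7 for SH-SY5Y and 144 ± 19.0 for BE(2)-C, with overlapping arrays. It was 94.2 ± 13.1 for SK-N-AS, and NGP at 73.8 and KELLY at 60.8 were below the filter level. XIAP and BIRC5 had 0 pairs called on centred arrays.

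Of 12 listed regulators of the family 11 were tested, and 36.4% of their differences were called on the deposited scale and 30% on centred arrays, against 37.7% and 20.8% of all tested genes. FOXO3 and FOXO1 encode transcription factors known to induce BCL2L11. FOXO3 averaged 931 ± 53.7 for NGP, 1485 ± 48.8 for BE(2)-C and 973 ± 36.9 for KELLY, against 703 ± 76.9 for SK-N-AS and 1366 ± 68.1 for SH-SY5Y. On centred arrays FOXO3 was at -0.05 for NGP, 0.01 for BE(2)-C, 0.31 for KELLY, -1.28 for SK-N-AS and 1.02 for SH-SY5Y. In its brightest set BCL2L11 was at 0.39 for NGP, 0.21 for BE(2)-C, -0.83 for KELLY, -0.86 for SK-N-AS and 1.08 for SH-SY5Y. FOXO1 was highest for SK-N-AS at 1.95 and lowest for BE(2)-C at -2.13, with SH-SY5Y at -1.22. The part of FOXO3 and FOXO1 in the BCL2L11 level was not tested. TRIM17, which in mouse neurons encodes a ligase acting on MCL1, averaged 621 ± 32.3 for SK-N-AS and was below the filter level in the other lines. MDM2, which restrains p53, averaged 830 ± 37.6 for NGP, 203 ± 5.80 for BE(2)-C and 161 ± 12.1 for KELLY, against 287 ± 8.04 for SK-N-AS and 140 ± 3.40 for SH-SY5Y.

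Genes outside these lists were ranked by the root mean square difference of their 5 centred line means from those of each of the 9. For BCL2 the nearest were UBE2QL1 at 0.186 and TFR2 at 0.215, and for BCL2L11 RND3 at 0.109 and KLHL9 at 0.175. For PMAIP1 they were SLC26A6 at 0.0593 and VWDE at 0.0599, for BID RNF145 at 0.0783 and NAA38 at 0.0857, and for BIK ERLIN2 at 0.074 and P2RX4 at 0.08. Some gene is always nearest, and this distance is small between any flat profiles, so a near neighbour was not read as a link. For the genes with flat profiles the nearest were PGGHG at 0.0142 for BCL2L1, PSMB2 at 0.0381 for BAK1, PTAR1 at 0.0503 for BCL2L2 and MSTO1 at 0.053 for MCL1. The second nearest of these were GNB1L at 0.0246, SCAMP2 at 0.0415, PHKB at 0.0516 and SGPL1 at 0.0545, in the same order of genes.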

How the data were processed

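The values are the authors' deposited intensity for each probe set on each array, untransformed. Per the submitters' processing notes MAS5 was used, with its version, normalization and scale not given in the sources used here. Whether the ERCC probe sets served to scale the arrays is not known. Probe sets were named through the platform annotation, and those naming several genes were left out. Values were transformed as log2(intensity + 1). A gene was tested where its highest line mean reached the median of all values (6.35, an intensity of 80.6). limma 3.58.1 in R 4.3.3 fitted 1 mean per line to 15 arrays (eBayes with a trend in intensity), with Benjamini-Hochberg adjustment within each of 10 contrasts. The 3 arrays per line limit the precision, and folds of dim genes are understated. The code was tested on simulated data. The 9 genes and the other lists were chosen with earlier results of these data known. The genes named were the 9, the 4 with the largest SD of centred line means in each other list, MYCN, MYC, and the 2 nearest in profile to each of the 9. BAX was added after its values were seen. Alternatives covered scaling, pseudocount, floor, filter, probe set choice, prior variance, block, and arrays or lines left out.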

Additional observations from a re-analysis of the deposited data

How the results depend on the processing

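The 0 genes that separated the classes and the 0 called over line means stayed at 0 under every alternative run. When the fold threshold was dropped, 77 of the 90 gene-by-pair differences were called on the deposited scale and 61 of 90 on centred arrays. The share of all tested genes was not taken for this setting or for the alternatives that follow. These counts therefore describe the 9 genes alone and do not set them against other genes. With arrays centred on the ERCC probe sets the count of calls was 30, with 2 for BCL2L1, 5 for BCL2L2, 2 for MCL1 and 4 for BAK1. After quantile normalization it was 22, with 0 for each of those genes. On centred arrays, where the alternatives were chosen after seeing the data, the count was 12 under the stricter filter, 12 when the probe sets of a gene were averaged and 11 with every probe set fitted alone. The stricter filter left out BCL2, BCL2L1 and BIK, which held 12 of the 25 calls, and the averaged fit left out BCL2L11, which held 6. With every probe set a call needed most sets of a gene, which ended all 8 calls of BCL2. Leaving out each array in turn gave 31 to 34 calls on the deposited scale and 24 to 26 on centred arrays. It also gave 0 to 0 separating genes on both scales and 0 to 0 called over line means. The amplified minus other difference of the balance then ran from -0.07 to -0.003. Without _s_at and _x_at probe sets that class difference was -0.20, against -0.03 in the main run. With the replicate number as a block the counts were 32 and 25, unchanged. Same-numbered arrays of different lines had deviations correlated at a median of -0.04 over 30 pairs, with a range from -0.227 to 0.234. No pairing by number was seen, though with 3 arrays per line a shared batch could go unseen. No class difference of the 9 genes was called under any alternative run, though signs changed. On the deposited scale unless named, BCL2L1 gave 0.0139 on centred arrays, 0.0213 after quantile normalization, 0.10 with the mean of probe sets, 0.45 without _s_at and _x_at sets, 0.19 without KELLY and 0.66 without SK-N-AS. BAK1 gave 0.0119 after quantile normalization, 0.0901 without NGP, 0.14 without KELLY, 0.93 without SK-N-AS, and -0.0878 to 0.0376 with single arrays left out. MCL1 gave -0.0787 with the mean of probe sets, -0.15 with every probe set, -0.0535 without NGP, -0.0154 without BE(2)-C and -0.44 without SH-SY5Y. BCL2L2 gave -0.31 without BE(2)-C and -0.59 without SH-SY5Y, BCL2L11 0.35 without KELLY and 0.0701 without SH-SY5Y, BID -0.15 without BE(2)-C, BIK 0.47 without SK-N-AS, and PMAIP1 -0.35 without SH-SY5Y. On centred arrays with a line left out, an alternative also chosen after seeing the data, signs changed without NGP for BCL2L1 (-0.0710), MCL1 (-0.0625) and BAK1 (0.0811), without BE(2)-C for BCL2L2 (-0.00761), and without KELLY for BCL2L11 (0.19) and PMAIP1 (-0.16). They changed without SK-N-AS for BID (-0.20) and BAK1 (0.31), and without SH-SY5Y for BCL2 (0.67), BCL2L1 (-0.00963) and BCL2L11 (0.78). Values near the filter level, as for BIK in 3 lines and the BCL2 beta sets, limit what can be read from their folds.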
